A study of Mus musculus with 8 samples.

Results

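Serpina3n is a secreted inhibitor of serine proteases, and it was followed here in mouse aorta together with 6 other genes linked to the acute-phase response: Serpina3g, Lcn2, Saa3, Hp, S100a8 and S100a9. All 7 were found by gene symbol among 35896 rows of the count table, and all 7 passed the filter on low counts that left 17182 genes for testing. They were grouped around Serpina3n because its level stood out at the end of an angiotensin II (AngII) infusion, so values of that contrast are given as a description. The name of the group goes beyond these data in places. For S100a8 and S100a9 the AngII and CTRL libraries overlapped, and Serpina3g is known as an inhibitor that acts inside the cell.

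Whole aortic tissue from 16 male C57BL6 mice (C57B6/J in the study's methods) was sequenced in 8 libraries, each made from the joined tissue of 2 mice, with 2 libraries in each of 4 groups. The CTRL group held untreated littermates, which the study describes as age-matched and sampled at each of its time points. The labels give no age or time point for the 2 CTRL libraries. The AngII group received 2.8 mg/kg of AngII each day from an osmotic minipump for 2 weeks, beginning at 11 weeks of age, and was sampled when the infusion ended. The AngII+2W and AngII+3W groups received the same infusion and were sampled 2 and 3 weeks after it had stopped. Mice of these groups were thus older than those of AngII, and age and time after infusion cannot be told apart. The labels name no genetic change in any group. A part of each aorta was sequenced without sorting cells, so that RNA of fat, adventitia and blood that came with the wall can be in the libraries.

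The acute-phase response is the change in secreted proteins that follows infection or injury. It is best known in the liver, where interleukin-6 acts through STAT3 and interleukin-1 through NF-κB and C/EBP factors, but fat, fibroblasts, endothelium and immune cells can also make several of these proteins. Serpina3n is the mouse counterpart most often compared with human α1-antichymotrypsin and inhibits granzyme B, cathepsin G and elastase. Haptoglobin (Hp) binds free haemoglobin, lipocalin-2 (Lcn2) binds the siderophores with which bacteria take up iron, and serum amyloid A3 (Saa3) is an apolipoprotein of inflamed tissue. S100a8 and S100a9 pair as calprotectin, an abundant protein of neutrophils and monocytes that also signals through Tlr4 and Ager.

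Serpina3n and Serpina3g lie 164.8 kb apart on the forward strand of chromosome 12 (GRCm38), Serpina3n at 104406729 to 104414329 and Serpina3g at 104236245 to 104241939. They belong to a cluster of 11 Serpina3 genes in the table. The other coding sequences of the cluster were 78.4% (Serpina3a) to 85.4% (Serpina3c) identical to that of Serpina3n, and the shorter coding sequence of Serpina3g (747 bases against 1257) was 84.2% identical over the 651 bases that could be aligned. The 4 lines that follow give the 60 coding bases in which Serpina3g, Serpina3c and Serpina3m differed most from Serpina3n, with each differing base in capitals, because these are the stretches by which reads of the 4 genes can be told apart. The sequences are from the GRCm38 transcripts and begin at coding base 1193 in Serpina3n and Serpina3m, 587 in Serpina3g and 1184 in Serpina3c.
Serpina3n: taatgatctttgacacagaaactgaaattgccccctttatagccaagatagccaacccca
Serpina3g: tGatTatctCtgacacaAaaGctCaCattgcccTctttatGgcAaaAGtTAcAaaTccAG
Serpina3c: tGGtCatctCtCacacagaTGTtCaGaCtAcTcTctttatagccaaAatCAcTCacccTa
Serpina3m: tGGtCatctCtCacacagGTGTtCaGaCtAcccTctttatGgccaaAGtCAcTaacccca
Serpina3g differed from Serpina3n at 18 of these bases, and Serpina3c and Serpina3m each at 20. Among the best-scoring matches of the Serpina3n transcript, identity was at most 80.5% (Serpina3i, over 94.5% of Serpina3n). Matches with lower scores were not kept. Serpina3g was 88.6% identical to Serpina3f over 96.5% of its length and 92.0% identical to the pseudogene Serpina3h over 56.7%, so its low counts are the less certain of the pair. A stretch of 51.0% of the Saa3 transcript matched Saa1 at 81.3% identity. No near copy was found for Lcn2, Hp, S100a8 or S100a9.

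Serpina3n, Lcn2 and Saa3 were the members most elevated together in AngII, and their start regions are therefore shown. Each line gives the 250 bases before the RefSeq start (GRCm38.p6), read 5′ to 3′ on the strand of the gene, with motif matches in capitals: chr12:104406458-104406707, forward, for Serpina3n, chr2:32387740-32387989, reverse, for Lcn2 and chr7:46715677-46715926, reverse, for Saa3.
Serpina3n: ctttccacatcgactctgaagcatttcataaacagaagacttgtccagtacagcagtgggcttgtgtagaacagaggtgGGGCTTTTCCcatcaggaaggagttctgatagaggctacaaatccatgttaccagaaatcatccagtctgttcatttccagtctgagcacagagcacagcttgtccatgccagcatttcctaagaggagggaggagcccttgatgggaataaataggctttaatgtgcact
Lcn2: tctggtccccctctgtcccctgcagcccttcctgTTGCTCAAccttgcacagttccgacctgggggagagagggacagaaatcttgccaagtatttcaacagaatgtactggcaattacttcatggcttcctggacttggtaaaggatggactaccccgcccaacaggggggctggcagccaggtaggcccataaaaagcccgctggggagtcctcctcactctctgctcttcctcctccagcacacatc
Saa3: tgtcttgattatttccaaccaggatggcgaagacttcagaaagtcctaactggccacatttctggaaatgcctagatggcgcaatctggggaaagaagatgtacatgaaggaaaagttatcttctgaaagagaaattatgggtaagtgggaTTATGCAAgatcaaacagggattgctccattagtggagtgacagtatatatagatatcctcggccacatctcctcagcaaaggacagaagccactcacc
The capitals mark GGG, any 2 bases and then TTTCC, a form of the NF-κB site, in Serpina3n, and TTNNGCAA, a form of the C/EBP site, read on the reverse strand in Lcn2 and on the printed strand in Saa3. Over the 250 bases of 32851 mouse promoters, searched on both strands, the first was found in 1.41% and the second in 9.56%. The STAT form TTCNNNGAA, found in 7.02% of the promoters, was matched in Serpina3g 33 to 25 bases before its start, together with the NF-κB form 85 to 76 bases before it. S100a9 held TTNNGCAA on the reverse strand 236 to 229 bases before the start, S100a8 held TATAAA (7.59% of promoters, printed strand only) 30 to 25 bases before it, and no matches overlapped. RefSeq held 6 of the 7 members, and Hp was not searched. A match is a stretch of letters and not a measured site.

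Among the 7 other Serpina3 promoters in RefSeq, that of Serpina3c was the most similar to Serpina3n, at 93.5% identity over 294 aligned bases of the RefSeq windows, and the next was Serpina3i at 76.1%. It is shown because the level of Serpina3c was also read in these libraries. The line gives the 250 bases before the start of Serpina3c, chr12:104153873-104154122 on the reverse strand, with bases that differ from Serpina3n or have no partner there in capitals.
Serpina3c: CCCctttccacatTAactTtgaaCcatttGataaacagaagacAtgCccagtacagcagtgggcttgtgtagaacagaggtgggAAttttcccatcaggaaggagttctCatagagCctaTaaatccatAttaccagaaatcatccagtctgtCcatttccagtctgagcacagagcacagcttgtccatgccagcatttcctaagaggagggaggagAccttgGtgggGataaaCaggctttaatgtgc
Of the 10 bases of the Serpina3n match GGGCTTTTCC, 2 differed in Serpina3c and 8 were the same. Serpina3c held no match to the exact form GGG, any 2 bases and TTTCC in this window. Broader forms of the NF-κB site were not searched.

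Total counts ranged from 18130441 to 21498200, so that the floor of 3 counts stood at 0.140 to 0.162 counts per 1000000 of the TMM-scaled library size (CPM). Smooth muscle markers were present in all libraries (summed 1696 to 9472 CPM for 6 genes), and so were adipocyte markers (8892 to 14639 CPM for 10 genes). AngII+3W replicate 1 stood apart with 2954 CPM of 8 skeletal muscle markers, against 5.96 to 76.2 CPM in the others, and 8 cardiac muscle markers ranged from 84.0 to 6038 CPM, highest in the same library. In such bulk tissue, fewer cells of a type and less RNA per cell cannot be told apart.

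Serpina3n had 14.1 and 14.2 CPM in the CTRL libraries (290 and 301 counts) and 153 and 147 CPM in the AngII libraries (2836 and 3096 counts). It was at 21.98 and 21.05 CPM at AngII+2W and at 8.82 and 14.4 CPM at AngII+3W. The AngII libraries were far above all others, the AngII+2W libraries lay just above CTRL, and the AngII+3W libraries spread around it. The log2 fold change of AngII over CTRL was 3.41 ± 0.22 (SE, n = 2 against 2), or 10.6-fold. Its replicates differed by 1.00 to 1.04 times in CTRL, AngII and AngII+2W, and by 1.63 times at AngII+3W, the group that holds the library with skeletal muscle markers. The sum of 10 fibroblast markers was also highest in both AngII libraries, with 4148 and 2550 CPM in CTRL, 13230 and 21379 in AngII, 7226 and 4927 at AngII+2W, and 1995 and 5251 at AngII+3W. Its part in the level of Serpina3n was not tested.

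In comparisons with AngII, Serpina3n fell by 2.80 ± 0.21 on the log2 scale at AngII+2W (FDR = 0.0136) and by 3.69 ± 0.22 at AngII+3W (FDR = 0.00425, the lowest of all genes tested), both with edgeR's quasi-likelihood test and Benjamini-Hochberg adjustment over all genes (FDR). These comparisons share the AngII libraries that brought the gene to notice. Leaving out any CTRL, AngII or AngII+2W library raised the FDR at AngII+2W to between 0.0619 (without CTRL replicate 1) and 0.293 (without AngII+2W replicate 2), with log2 fold changes of -2.77 to -2.84. At AngII+3W the FDR was at most 0.0403 without any single library, and 0.0985 when only the libraries of AngII and AngII+3W were fitted. Without AngII+3W replicate 1 the log2 fold change was -3.37. Against CTRL, the difference was 0.61 ± 0.20 at AngII+2W (FDR = 0.355) and -0.29 ± 0.21 at AngII+3W (FDR = 0.617), so that neither passed the threshold of 0.05. Without AngII+3W replicate 1, the last value was 0.02 (FDR = 0.9754). Between AngII+3W and AngII+2W, which share no library with AngII or CTRL, the difference was -0.89 ± 0.21 (FDR = 0.391), or -0.58 without AngII+3W replicate 1 (FDR = 0.490) and -1.33 without AngII+3W replicate 2 (FDR = 0.00665).

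**Figure D1:**
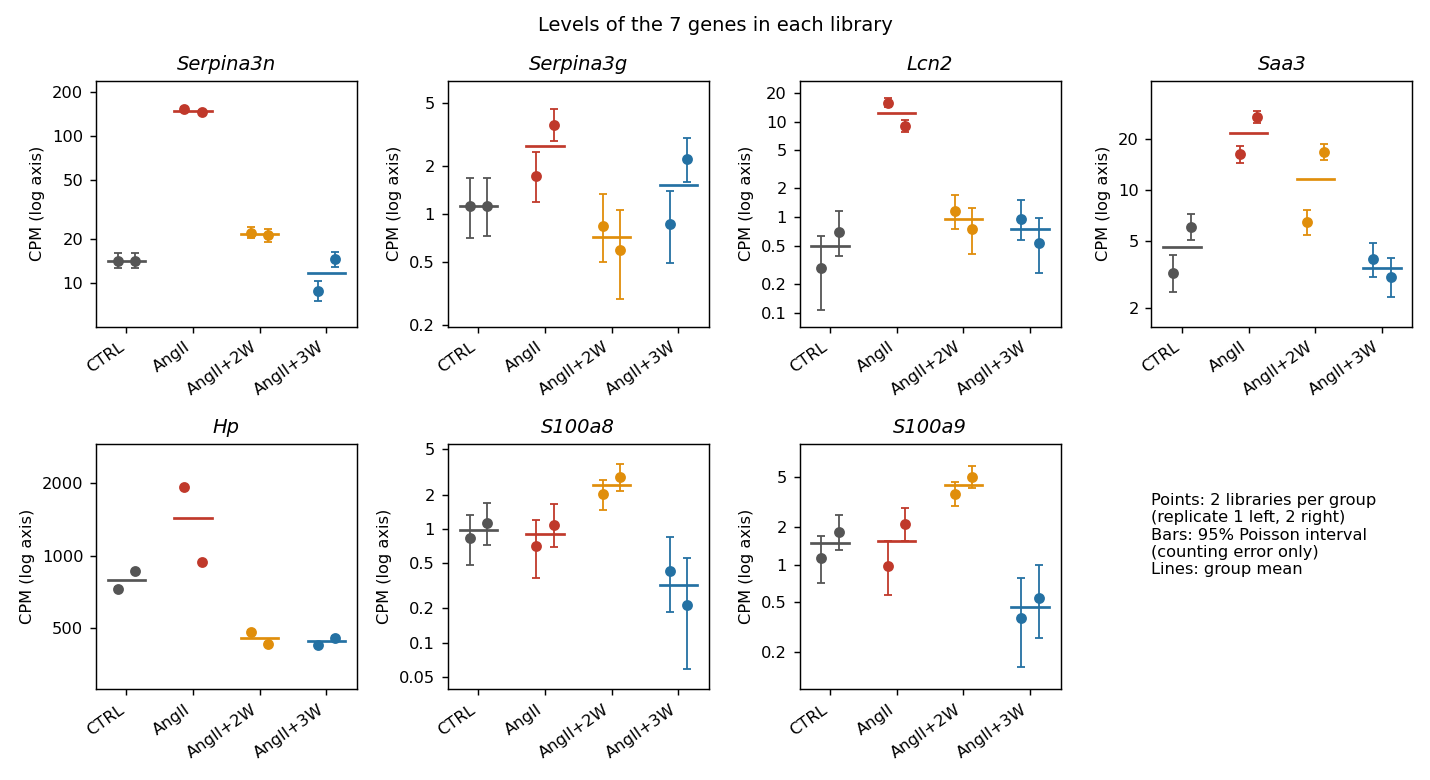
CPM of the 7 genes in each library (log axis, 2 libraries per group as points with 95% Poisson intervals of their counts, group means as lines). Serpina3n and Lcn2 were highest in both AngII libraries, Saa3 was highest in AngII replicate 2 at 27.2 CPM, and S100a8 and S100a9 were highest at AngII+2W and lowest at AngII+3W.

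Serpina3g, the intracellular relative that inhibits cathepsins, was scarce. It gave 23 and 24 counts in CTRL, 32 and 77 in AngII, 18 and 11 at AngII+2W, and 16 and 41 at AngII+3W. AngII replicate 2, at 3.65 CPM (95% Poisson interval 2.88 to 4.56, counting error only), was the only library whose interval lay outside those of the CTRL libraries, at 1.12 and 1.13 CPM. The log2 fold change of AngII over CTRL was 1.26 ± 0.53, and 0.62 without AngII replicate 2. In the comparison of AngII+2W with AngII it was -1.90 ± 0.55 (FDR = 0.171), and no comparison of the gene passed the threshold. Its level in AngII was 1.49 CPM per kb of transcript against 72.6 for Serpina3n.

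Of the 9 other genes of the Serpina3 cluster in the table, 6 were tested. Serpina3m rose in AngII, by 3.20 ± 0.56 on the log2 scale (FDR = 0.0236), from 14 and 5 counts in CTRL to 102 and 64, and was at 4 and 7 counts at AngII+2W and 4 and 3 at AngII+3W. It was the 1 gene of the 6 that passed the test in this comparison, against 5.10% of all genes. Without any single CTRL, AngII or AngII+2W library its FDR was 0.0543 to 0.113. Part of its span overlaps Serpina3k on the same strand, and their reads may not be fully separated.

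Serpina3c, whose start region is nearly that of Serpina3n, had 16.7 and 17.7 CPM in CTRL and 26.3 and 21.4 CPM in AngII, so that its log2 fold change was 0.47 ± 0.16 (FDR = 0.143), and it passed no comparison. In CTRL both genes were at similar CPM, and in AngII Serpina3n was at 149.9 CPM on average and Serpina3c at 23.9 CPM. Serpina3c stayed at 16.59 and 19.04 CPM at AngII+2W and at 15.8 and 17.8 CPM at AngII+3W. Serpina3i, with 18 and 16 counts in AngII and 0 and 1 at AngII+3W, fell between these groups (log2 fold change -4.71 ± 0.85, FDR = 0.0447), as did Serpina3m (-4.46 ± 0.64, FDR = 0.0269). For Serpina3i this call was kept only without AngII+3W replicate 2, and the FDR was 0.0968 to 0.239 without any other library. For Serpina3m it was 0.0650 to 0.129 without any AngII or AngII+2W library or AngII+3W replicate 1. Serpina3b, Serpina3f and Serpina3k passed no comparison, and Serpina3a, Serpina3h and Serpina3j were at 9 counts or fewer in every library. The median log2 fold change of the 6 tested genes was 0.42 in AngII against CTRL and -2.75 at AngII+3W against AngII, where the medians of all genes were -0.01 and 0.04. The second median rests largely on genes with few counts at AngII+3W, among them Serpina3i, Serpina3b (6 and 0) and Serpina3k (10 and 1). The more abundant Serpina3c averaged 23.9 CPM in AngII and 16.8 CPM at AngII+3W.

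**Figure D2:**
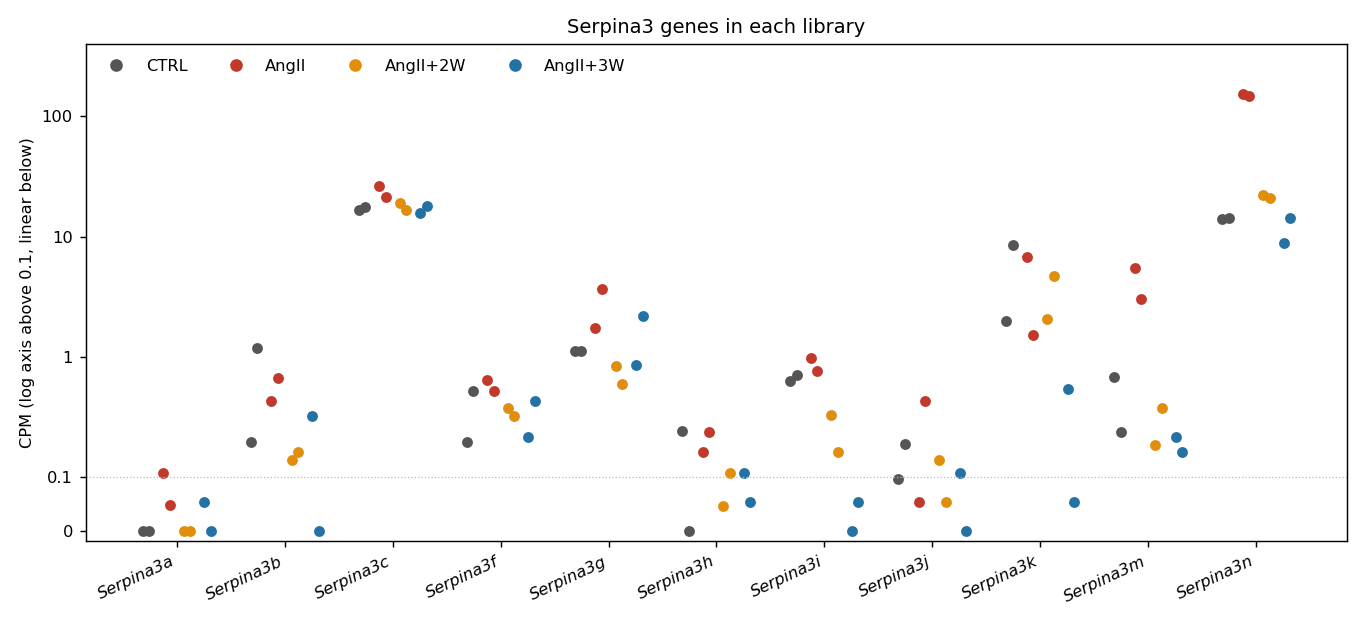
CPM of the 11 Serpina3 genes in each library (log axis above 0.1 CPM and linear below, points coloured by group, 2 libraries per group). Serpina3n reached 153 CPM and Serpina3m 5.51 CPM in the AngII libraries, above all other groups, while Serpina3c lay between 15.8 and 26.3 CPM throughout.

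Hp (chromosome 8, 109575128 to 109579172, reverse strand) was by far the most abundant of the 7 genes and made up 83.2% to 97.2% of their reads. It had 727 and 861 CPM in CTRL, 1930 and 938 CPM in AngII, 482 and 430 CPM at AngII+2W, and 427 and 456 CPM at AngII+3W. Both later groups were below both CTRL libraries, and the AngII libraries were above them but 2.06 times apart. Per kb of transcript, its mean level was 590.5 CPM in CTRL and 328 CPM at AngII+3W. Hp fell from AngII to AngII+3W by 1.70 ± 0.32 on the log2 scale (FDR = 0.0475), a call kept only when AngII+3W replicate 2 was left out (FDR = 0.0481) and otherwise lost without any single library (FDR = 0.0810 to 0.145). From AngII to AngII+2W the change was -1.65 ± 0.31 (FDR = 0.0744).

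Against CTRL, the log2 fold change of Hp was 0.85 ± 0.31 in AngII, -0.80 ± 0.31 at AngII+2W (FDR = 0.407) and -0.85 ± 0.31 at AngII+3W (FDR = 0.318), or -0.80 without AngII+3W replicate 1. Without AngII replicate 1, the value in AngII was 0.24. AngII replicate 1 also had the highest sum of 8 hepatocyte markers, 61.9 CPM against 5.31 in AngII replicate 2, and the highest sum of adipocyte markers, 14639 CPM against 12347. Over CTRL, AngII+2W and AngII+3W the hepatocyte sums ranged from 4.48 to 43.7, 16.7 to 25.6 and 2.04 to 2.90 CPM, each far below the level of Hp alone. Adipocyte sums ranged from 9474 to 11918 CPM in CTRL, 8892 to 9319 at AngII+2W and 10270 to 12275 at AngII+3W, where Hp was below CTRL. The sum of 6 erythroid markers, mostly the haemoglobin chains whose protein haptoglobin binds, was 4296 to 4358 CPM in CTRL, 3022 to 3062 in AngII, 980 to 2559 at AngII+2W and 787 to 1183 at AngII+3W. The part of these marker lists in the level of Hp was not tested.

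Lcn2 (chromosome 2, 32384633 to 32388252, reverse strand) gave 6 and 15 counts in CTRL, 293 and 192 in AngII, 25 and 14 at AngII+2W, and 18 and 10 at AngII+3W. In CPM this was 0.29 and 0.71, then 15.8 and 9.10, then 1.17 and 0.75, and 0.97 and 0.54. The AngII libraries were again apart from all others, which overlapped among themselves except that AngII+2W lay just above CTRL. The log2 fold change of AngII over CTRL was 4.62 ± 0.50, or 24.5-fold. It ranked 10 by size among the 499 genes past FDR 0.05 and higher in that comparison, where Serpina3n ranked 31 and Saa3 99. The members were chosen on this contrast, so the ranks are a description and nothing is read from them. Relative to AngII, Lcn2 fell by 3.68 ± 0.47 at AngII+2W (FDR = 0.0476) and fell by 4.04 ± 0.48 at AngII+3W (FDR = 0.0208). Without any CTRL, AngII or AngII+2W library the first FDR was 0.0757 to 0.503, and without any AngII or AngII+2W library or AngII+3W replicate 1 the second was 0.0514 to 0.107. Against CTRL it was at 0.94 ± 0.55 at AngII+2W (FDR = 0.606) and 0.58 ± 0.57 at AngII+3W (FDR = 0.720), or 0.10 without AngII+3W replicate 1. At these counts the CTRL level itself is loose: 6 counts allow 2.20 to 13.1 (95% Poisson interval).

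Saa3 (chromosome 7, 46711998 to 46715700, reverse strand) gave 66 and 128 counts in CTRL, 302 and 575 in AngII, 138 and 313 at AngII+2W, and 72 and 57 at AngII+3W, or 3.22 and 6.02, 16.3 and 27.2, 6.44 and 16.8, and 3.87 and 3.06 CPM. AngII+2W replicate 2 was thus as high as AngII replicate 1, and the AngII+3W libraries were within the range of CTRL or just under it. The log2 fold change over CTRL was 2.24 ± 0.50 in AngII, 1.32 ± 0.50 at AngII+2W (FDR = 0.395) and -0.41 ± 0.52 at AngII+3W (FDR = 0.788), or -0.60 without AngII+3W replicate 1. The change from AngII to AngII+2W was -0.91 ± 0.47 (FDR = 0.427), and to AngII+3W it was -2.65 ± 0.52 (FDR = 0.0530). Without AngII+2W replicate 2 the value of AngII+2W over CTRL was 0.47, and AngII+2W and AngII+3W differed by -0.92 instead of -1.74.

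S100a8 and S100a9 lie on chromosome 3 with 22596 bases between them, S100a8 at 90668978 to 90670035 on the forward strand and S100a9 at 90692632 to 90695721 on the reverse strand. S100a8 gave 17 and 24 counts in CTRL, 13 and 23 in AngII, 43 and 53 at AngII+2W, and 8 and 4 at AngII+3W. S100a9 gave 23 and 39 counts in CTRL, 18 and 45 in AngII, 79 and 94 at AngII+2W, and 7 and 10 at AngII+3W. For both genes CTRL and AngII overlapped, the AngII+2W libraries were above all others and the AngII+3W libraries below all others.

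The largest differences were those between the later groups. From AngII+2W to AngII+3W the log2 fold change was -2.88 ± 0.48 for S100a8 (FDR = 0.173) and -3.24 ± 0.50 for S100a9 (FDR = 0.170) with edgeR, so that neither passed the adjusted threshold. Without AngII+3W replicate 1 they were -3.46 (FDR = 0.300) and -3.01 (FDR = 0.383). With DESeq2 both passed, at FDR = 0.0125 and FDR = 0.000259. Against CTRL, S100a8 was at 1.30 ± 0.42 at AngII+2W (FDR = 0.336) and -1.58 ± 0.50 at AngII+3W (FDR = 0.257), and S100a9 at 1.56 ± 0.43 (FDR = 0.301) and -1.68 ± 0.52 (FDR = 0.240). Without AngII+3W replicate 1 the values at AngII+3W were -2.16 for S100a8 and -1.45 for S100a9. In AngII they were at -0.12 ± 0.44 and 0.08 ± 0.45.

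Of 12 neutrophil markers, Ly6g, Camp and Stfa2l1 were at 3 counts or fewer in every library, and Ly6g was at 0 in all but AngII replicate 2, where it had 2. None of the 4 neutrophil markers tested passed any comparison. The summed level of the 12 was 12.2 to 14.4 CPM in CTRL, 14.0 to 18.6 in AngII, 13.02 to 19.12 at AngII+2W, and 10.6 to 51.4 at AngII+3W. Of the last value, 39.6 CPM (737 counts) were Ltf at AngII+3W replicate 1, a gene picked out after its values were seen. The sum hides unlike orders. Csf3r, also picked out afterwards, averaged 4.03 CPM in CTRL, 6.68 in AngII, 7.60 at AngII+2W and 2.47 at AngII+3W. Mmp8 and Retnlg, at 15 counts or fewer in every library, also had their highest mean at AngII+2W. Cxcr2 and Mpo had theirs at AngII+3W, Prtn3 in AngII, and Elane and Ngp in CTRL. Macrophage markers (12 genes) summed to 301 to 395 CPM in CTRL, 788 to 1270 in AngII, 520 to 535 at AngII+2W and 262 to 434 at AngII+3W, an order that differs from that of S100a8 and S100a9. The part of these cells in any of the 7 genes was not tested.

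**Figure D3:**
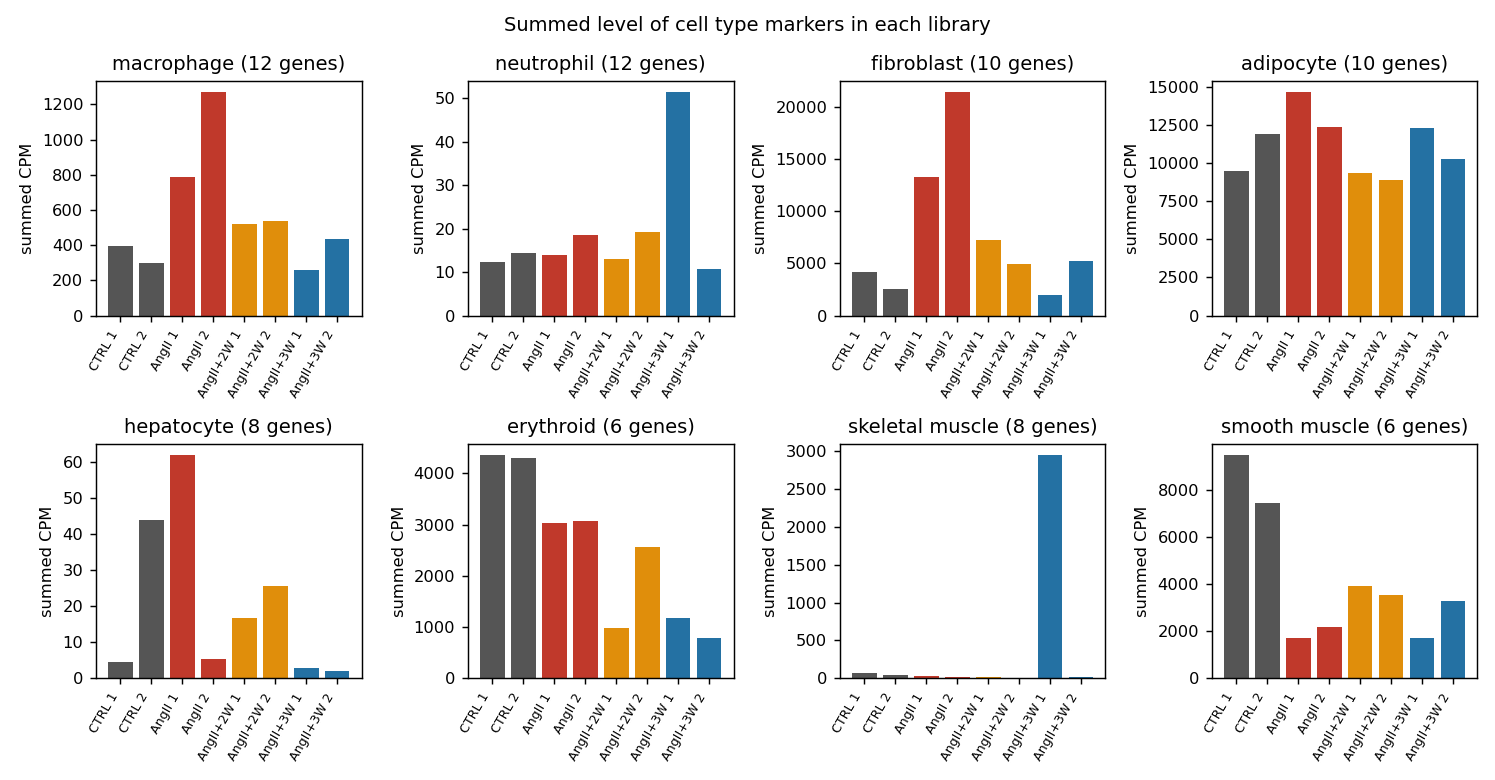
Summed CPM of 8 lists of cell type markers in each library (bars, coloured by group). Macrophage and fibroblast sums were highest in the AngII libraries, smooth muscle sums were highest in CTRL, the hepatocyte sum was highest in AngII replicate 1, and skeletal muscle markers were at 2954 CPM at AngII+3W replicate 1.

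Taking the 7 genes together, 3 were past FDR 0.05 in AngII against CTRL (Serpina3n, Lcn2 and Saa3, all higher), where 5.10% of all genes were (2.90% higher). The genes were chosen on this contrast, so nothing is read from that count. Since the AngII libraries were part of the choice, nothing is read from the counts of falls from AngII either. No member passed at AngII+2W against CTRL, where 0% of all genes did, or at AngII+3W against CTRL (0.285% of genes). In AngII+2W against AngII, 2 members fell (0.140% of all genes did), and at AngII+3W against AngII 3 fell (1.32%). Without AngII replicate 2 no member passed in AngII against CTRL, and with only the libraries of the 2 groups in the fit none passed at AngII+3W against AngII. Without adjustment, p was under 0.05 for 5 members at AngII+2W against CTRL, 4 of them higher and Hp lower, against 10.7% of all genes, and for 3 members (Hp, S100a8 and S100a9, all lower) at AngII+3W against CTRL, against 7.18% of genes lower. In AngII+2W against CTRL the libraries of the groups did not overlap for any of the 7 genes, as for 43.8% of all genes.

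AngII+3W against AngII+2W shares no library with the contrast that brought the genes together. The genes were still chosen with earlier results of these data known, so nothing is read from the count of members here. S100a8 and S100a9 also moved together (r = 0.952) and are not separate counts. No gene of the 17182 passed FDR 0.05 there with edgeR (0% called, 1518 genes at unadjusted p under 0.05), and DESeq2 called 228. Of the 7 members, 4 had an unadjusted p under 0.05, all lower at AngII+3W (Serpina3n, Saa3, S100a8 and S100a9), against 4.22% of all genes lower. DESeq2 called these 4. The log2 fold change was -0.36 ± 0.53 for Lcn2, -0.05 ± 0.31 for Hp and 1.08 ± 0.57 for Serpina3g (FDR = 0.628), none of which passed.

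**Figure D4:**
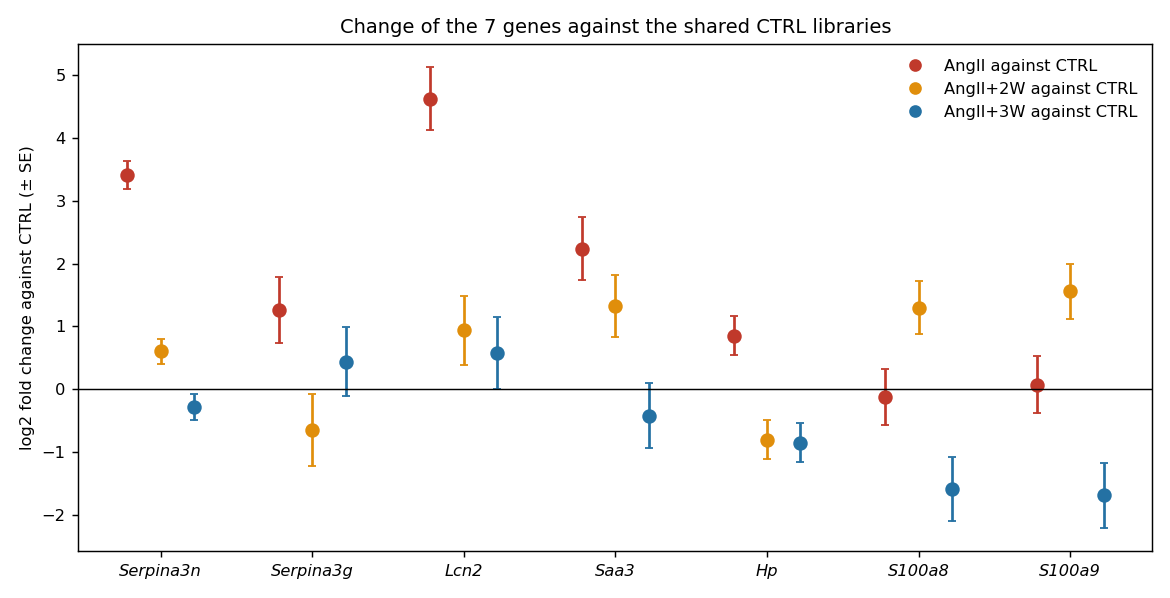
Log2 fold change of each gene against CTRL (points, with SE as bars) in AngII, AngII+2W and AngII+3W, which share the CTRL libraries. Serpina3n, Lcn2 and Saa3 were highest in AngII at 2.24 to 4.62, Hp was above CTRL in AngII and below it afterwards, and S100a8 and S100a9 were above CTRL at AngII+2W and below it at AngII+3W.

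A wider list of 37 genes, named for the acute-phase response, was read in the same libraries. It also held S100a4, S100a6, S100a10 and S100a11, relatives of S100a8 and S100a9, and Chil1 and Chil3. Its counts and medians are thus not those of acute-phase genes alone. The list was chosen with earlier results of these data known, so nothing is read from its counts against the shares of all genes. Of 35 tested, 8 rose in AngII (2.90% of all genes did), among them Ptx3, Lbp and Mt2, and none fell, and the median log2 fold change was 0.68 against -0.01 for all genes. This number was 0 without CTRL replicate 1 or AngII replicate 2, 1 without CTRL replicate 2, 2 without AngII replicate 1 and 4 without either AngII+2W library. Ptx3, a long pentraxin made in inflamed vessels, went from 7 and 4 counts in CTRL to 58 and 108 in AngII (3.94 ± 0.48, FDR = 0.00956, or 0.0659 and 0.0876 without CTRL replicate 1 and AngII replicate 2). Lbp, which hands lipopolysaccharide to Cd14 and Tlr4, went from 13.15 and 12.04 CPM to 43.4 and 72.5 CPM (2.20 ± 0.27, FDR = 0.00970, or 0.0573 to 0.0789 without either CTRL library or AngII replicate 2). Orm1, an acid glycoprotein of plasma picked out after its values were seen, went from 26.4 and 26.5 CPM to 74.0 and 54.8 CPM (1.28 ± 0.21, FDR = 0.0208, or 0.0878 to 0.126 without any CTRL or AngII library). Orm1 was still at 54.6 and 42.3 CPM at AngII+2W (0.88 ± 0.21 over CTRL, FDR = 0.268).

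None of the 35 passed at AngII+2W or AngII+3W against CTRL, or at AngII+2W against AngII. Because the list was chosen with earlier results of these data known, nothing is read from the next count against the share of all genes. From AngII to AngII+3W, 8 fell (1.32% of all genes did), among them Itih4, Ptx3, Lbp, Lrg1, Mt1 and Mt2, and none rose, with a median of -1.55 against 0.04 for all genes. This number was 0 without AngII+3W replicate 1 or either AngII+2W library, 1 without AngII replicate 2, 2 without AngII replicate 1 and 5 without either CTRL library, and it was 14 with DESeq2. Itih4, an inter-alpha-trypsin inhibitor chain, was at 328 and 136 CPM in AngII, 92.0 and 77.2 in CTRL, and 24.5 and 19.6 at AngII+3W (-3.40 ± 0.42 from AngII, FDR = 0.0209, or 0.0514 to 0.0544 without either AngII+2W library or AngII+3W replicate 1). As with Hp, its later groups lay below CTRL and its AngII replicate 1 was the higher. Lrg1, which moved most like Hp over the 8 libraries, was at 41.4 and 57.0 CPM in CTRL, 109 and 68.6 in AngII, and 28.2 and 29.9 at AngII+3W. The median of -1.55 also takes in genes with AngII replicates far apart. AngII replicate 1 held 65 counts of Fga, 99 of Serpina1e and 723 of the hepatocyte marker Alb. Replicate 2 held 1, 13 and 1. Ptx3 and Lbp were higher in replicate 2. These examples were picked out after their values were seen. The 8 hepatocyte markers had a median of -3.87 from AngII to AngII+3W. The part of hepatocyte RNA in the medians of this list was not tested.

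Saa2, a circulating relative of Saa3 picked out with Alb after their values were seen, was at 0 counts in 6 libraries and at 52 and 17 counts in AngII, at least 12.6-fold above CTRL held at 3 counts per library. Its fitted change did not pass the threshold (FDR = 0.0637). In those AngII libraries Alb, which defines hepatocytes, was at 723 and 1 counts. In CTRL replicate 2 there were 579 counts of Alb and 0 of Saa2. The part of hepatocytes in these counts was not tested.

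**Figure D5:**
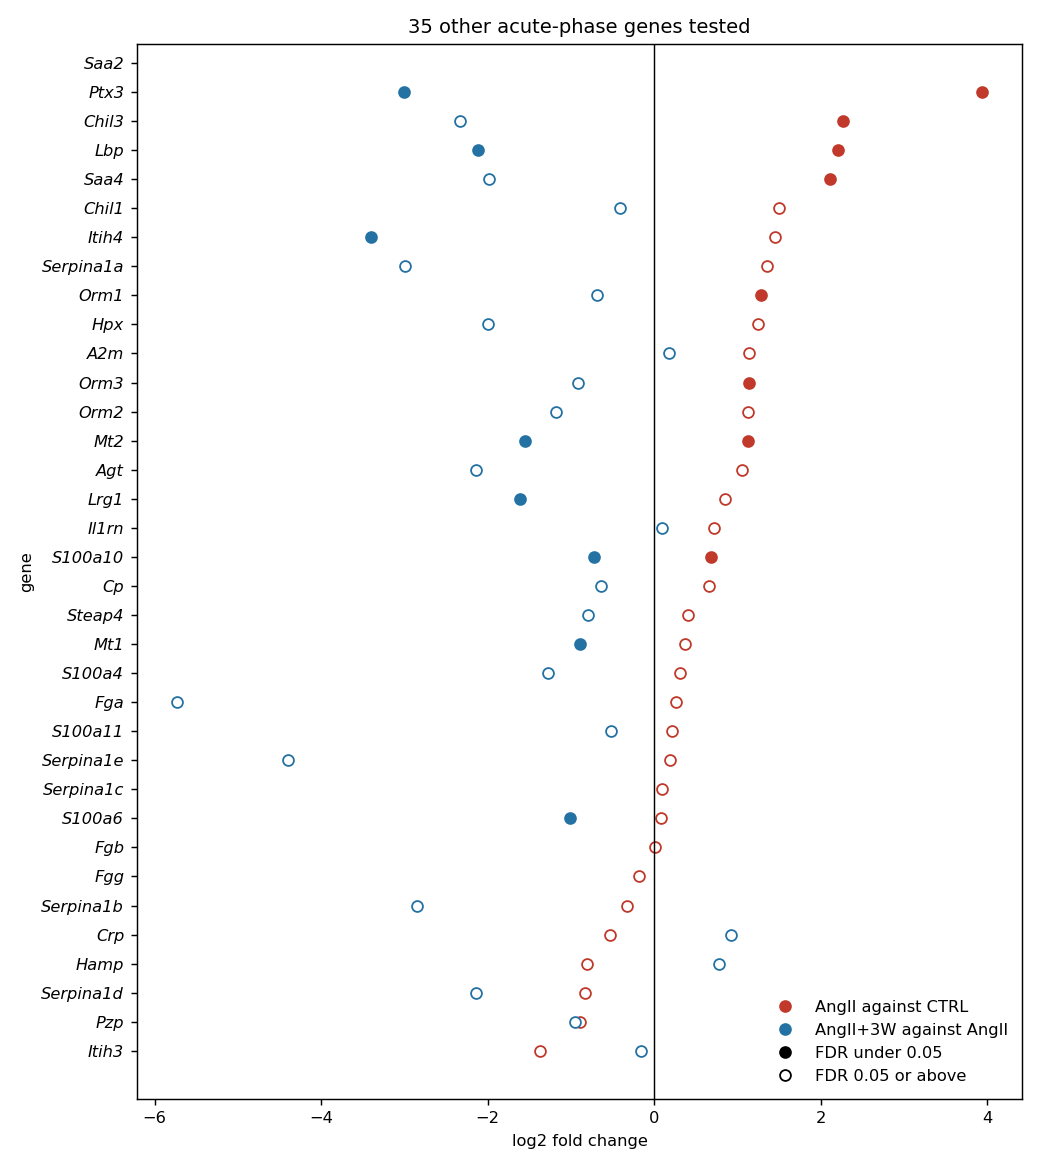
Log2 fold change of the 35 tested genes of the wider acute-phase list, in AngII against CTRL and at AngII+3W against AngII (filled where FDR was under 0.05). The list also holds S100a4, S100a6, S100a10, S100a11, Chil1 and Chil3. Values of genes at 0 in a whole group are not drawn (Saa2 in both, Fgb, Fgg and Serpina1c in the second), and the called genes were all higher in AngII and all lower at AngII+3W.

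A list of 32 genes was read around the interleukin-6 and interleukin-1 pathways, which are known to drive acute-phase genes. It held cytokines, receptors, kinases and transcription factors. It also held Tnf, Tnfrsf1a, Il17ra, the inhibitors Socs1 and Socs3, and Nr3c1, Tsc22d3 and Fkbp5 of the glucocorticoid response, so it is wider than those 2 pathways. Of the 32 genes, 29 were tested and none passed in any of the 6 comparisons. Their median was 0.27 in AngII against CTRL. Il6 and Il1b, picked out after their values were seen, were highest in AngII replicate 2. Il6 was read with 2 and 3 counts in CTRL, 6 and 65 in AngII, and 3 or fewer in each later library. Il1b was read with 3 and 21 counts in CTRL, 18 and 159 in AngII, 42 and 59 at AngII+2W, and 8 in both libraries of AngII+3W. In AngII replicates 1 and 2, Serpina3n was at 153 and 147 CPM, Saa3 at 16.3 and 27.2 CPM and Serpina3g at 1.73 and 3.65 CPM. The part of these cytokines in any of the 7 genes was not tested.

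Receptors and partners of the members (13 tested of 16 listed) passed no comparison either. Among the proteases that Serpina3n and Serpina3g are known to inhibit or that act beside them, 11 of 14 were tested. Ctss, a cathepsin of antigen-presenting cells, rose in AngII from 17.5 and 14.3 to 39.7 and 88.4 CPM (2.01 ± 0.37, FDR = 0.0273) and fell to 12.7 and 18.4 CPM at AngII+3W (-2.04 ± 0.37, FDR = 0.0458). The first call was lost without either CTRL or AngII+2W library or AngII replicate 2 (FDR = 0.0679 to 0.141), and the second without these or AngII+3W replicate 1 (FDR = 0.0842 to 0.227). The other 10 passed no comparison.

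Over the 8 libraries, the genes whose log2 CPM moved most like Serpina3n were Slc27a3, Ccl8, Ppic, Rfwd3, Col6a3, Tmem176b, Diaph3, Plvap, Susd1 and H3c2, with Pearson r from 0.979 to 0.985. They share the 4 groups, the libraries and their depth with Serpina3n, so such values are mostly set by the gap between AngII and the other groups. Ccl8, a chemokine for monocytes, was the most similar in size, with 1.22 CPM in CTRL, 17.2 in AngII, 1.36 at AngII+2W and 1.05 at AngII+3W, while Rfwd3 followed the same order with a log2 fold change of 0.18. For Lcn2 the closest were Mmp19, Tmem176a and Cdk1 (0.976 to 0.979), for Saa3 Prg4, Sirpb1c and the macrophage marker Itgam (0.965 to 0.975), and for Hp Lrg1, Szrd1 and Triap1 (0.960 to 0.976). For Serpina3g they were Cmklr1, Ctsw and Tbl2 (0.973 to 0.978). Among the members, r was 0.937 between Serpina3n and Lcn2, 0.828 between Serpina3n and Saa3, and 0.952 between S100a8 and S100a9, but 0.152 between Serpina3n and S100a8.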

How the data were processed

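Gene expression was measured by RNA sequencing in 8 libraries of mouse aorta, each from pooled tissue of 2 mice. The authors depleted ribosomal RNA, sequenced on a NovaSeq, checked reads with FastQC and MultiQC, and quantified them with Salmon on the Ensembl cDNA of GRCm38 in the ARMOR workflow. The deposited values are estimated counts per gene, written as whole numbers and not normalized. Estimated counts divide reads between similar transcripts, so values of near-identical genes are less certain.

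Groups were taken from the sample labels. Counts were filtered with filterByExpr and scaled by TMM, and edgeR 4.0.16 (R 4.3.3) was fitted to all 8 libraries with 1 coefficient per group. Each of 6 comparisons was tested two-sided with the quasi-likelihood F test, and p-values were adjusted over 17182 genes (Benjamini-Hochberg, FDR). The SE of a log2 fold change was its size divided by the square root of F. The p-values measure the spread between pools of 2 mice. Intervals are exact Poisson limits and, like the floor of 3 counts, cover counting error only. Total counts of 18130441 to 21498200 set the depth.

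The 7 genes and all lists were chosen with earlier results of these data known. Named genes were the 7 members, all Serpina3 genes, from each list at most 6 genes that passed a comparison (by smallest p) with defining markers at 3 counts or fewer, and the 10 (Serpina3n) or 3 (other members) genes with the highest Pearson r of log2 CPM (prior count 2). The alternatives were DESeq2 size factors, every gene with at least 1 count, DESeq2 1.42.0, the replicate number as a block, a fit to the 2 groups compared, and leaving out each library. For the acute-phase list and named list genes they were added after seeing the data. Transcripts were compared with MAFFT 7.526 and BLAST 2.17.0, promoters were taken from RefSeq (GRCm38.p6), and figures were drawn with matplotlib 3.10.9. The edgeR fit was tested on simulated data.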

Additional observations from a re-analysis of the deposited data

Results flagged for a closer look

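In 9 results the effects of AngII, AngII+2W or AngII+3W against CTRL were flagged as unlike between groups. A result was flagged where the comparison of the 2 groups passed FDR 0.05, or where their libraries lay on opposite sides of both CTRL libraries. The second is no test. Falls from AngII reuse the libraries on which the genes were chosen, so their FDRs are given as a description. Effects against CTRL share the CTRL libraries, so their difference is the comparison of the later group with the earlier one, fitted with edgeR (FDR over all genes, n = 2 against 2). Serpina3n differed by -2.80 at AngII+2W (FDR = 0.0136) and by -3.69 at AngII+3W (FDR = 0.00425) from AngII on the log2 scale. Lcn2 differed from AngII by -3.68 at AngII+2W (FDR = 0.0476) and by -4.04 at AngII+3W (FDR = 0.0208).

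Hp lay above both CTRL libraries in AngII and under both in the later groups. It differed from AngII by -1.65 at AngII+2W (FDR = 0.0744) and by -1.70 at AngII+3W (FDR = 0.0475). Serpina3g had AngII libraries above and AngII+2W libraries under those of CTRL, and differed by -1.90 between these groups (FDR = 0.171). S100a8 and S100a9 lay above CTRL in AngII+2W and under it in AngII+3W, and differed by -2.88 (FDR = 0.173) and -3.24 (FDR = 0.170) between these groups, which did not pass the adjusted threshold.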

How the results depend on the processing

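Of 280 log2 fold changes recomputed with another setting, 254 kept their direction and side of the FDR threshold of 0.05, 13 lost and 13 gained significance, and 0 turned their direction. When all genes with at least 1 count were tested, those past the threshold numbered 5 for AngII+2W and 200 for AngII+3W against CTRL (0 and 49 with the filter), 242 for AngII+2W and 522 for AngII+3W against AngII (28 and 276), and 11 for AngII+3W against AngII+2W (0). DESeq2 called 1551 genes in AngII, 359 at AngII+2W and 587 at AngII+3W against CTRL, 645 and 954 in the later groups against AngII, and 228 between the later groups, where 4 of the 7 members passed, and 14 genes of the acute-phase list at AngII+3W against AngII. With only the 2 groups compared, 884 genes were called at AngII+2W against AngII and 0 at AngII+3W against CTRL or AngII, where 0 members and 0 acute-phase genes then passed (Serpina3n at FDR = 0.0985, Lcn2 at 0.113 and Hp at 0.198 by edgeR). The cause was not tested.

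The replicate numbers were not taken as a pairing, since the libraries come from different mice. The replicate differences of 2 groups correlated over genes at r = -0.0445 to 0.248. These values do not settle whether libraries with the same number were processed together, and the labels do not say. With the replicate number as a block, 4 genes passed at AngII+3W against CTRL, 2 at AngII+3W against AngII+2W, and 1 member (Serpina3n) at AngII+2W against AngII, where Lcn2 was at FDR = 0.0629. In AngII+3W against AngII, the edgeR fit with this block put Saa3 at FDR = 0.0416, Hp at 0.0679 and Serpina3i at 0.0657.

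With 1 library left out, where the lone library is assumed to vary like the other groups, 355 of 448 log2 fold changes kept their direction and side of the threshold and 8 turned their direction. The genes called ranged from 0 to 1504, 0 to 275 and 0 to 463 for AngII, AngII+2W and AngII+3W against CTRL, from 0 to 262 and 3 to 1005 for AngII+2W and AngII+3W against AngII, and from 0 to 432 for AngII+3W against AngII+2W. The members called ranged from 0 to 3 in AngII against CTRL, 0 to 2 and 1 to 3 in the later groups against AngII, and 0 to 2 between the later groups, and the acute-phase genes from 0 to 10 in AngII against CTRL and 0 to 9 at AngII+3W against AngII. The log2 fold changes that turned were those of S100a8 (-0.48 to 0.15) and S100a9 (-0.60 to 0.53) in AngII against CTRL, of Serpina3n (-0.74 to 0.0224), Serpina3g (-0.44 to 0.96) and Saa3 (-0.80 to 0.0928) at AngII+3W against CTRL, and of Hp (-0.15 to 0.0151) at AngII+3W against AngII+2W, and none of these passed the threshold in the full fit. S100a8 turned without CTRL replicate 2 (0.11) or AngII replicate 1 (0.15), and S100a9 without CTRL replicate 1 (-0.23) or AngII replicate 2 (-0.60). With 2 libraries per group, a missed threshold does not show equal levels, and the counts of Serpina3g, Lcn2 in CTRL, S100a8 and S100a9 limit those values most.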

Other observations

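Cell type markers outside the 7 genes also differed between the groups (edgeR, FDR over all genes). Their lists, too, were chosen with earlier results of these data known. In AngII against CTRL, where 499 of 17182 genes rose and 378 fell, 7 of 12 macrophage markers rose, among them Ccr2, a receptor of recruited monocytes (log2 fold change 1.98 ± 0.22, FDR = 0.00778), and Cd68 (2.13 ± 0.36, FDR = 0.0210). Of 10 fibroblast markers 3 rose, among them the matrix gene Lum (2.90 ± 0.41, FDR = 0.0150), and of 6 smooth muscle markers 5 fell, among them Myl9, a myosin light chain of contractile cells (-2.08 ± 0.20, FDR = 0.00530). All 3 counts were 0 without CTRL replicate 1 or AngII replicate 2. Without CTRL replicate 2 they were 1, 0 and 5, without AngII replicate 1 they were 3, 2 and 1, without either AngII+2W library 2, 2 and 4, and without an AngII+3W library 10, 5 or 6, and 6.

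From AngII to AngII+3W, where 227 of 17182 genes fell, 4 macrophage and 2 fibroblast markers fell, but 0 of either when only these 2 groups were fitted, and 0 without AngII+3W replicate 1. Against CTRL, where 46 genes were lower at AngII+3W, 4 smooth muscle markers were lower (Myl9 at -2.25 ± 0.20, FDR = 0.0357). This count was 0 with the 2 groups alone, with the replicate number as a block, and without AngII+3W replicate 1 or any other single library except CTRL replicate 2 (2 lower) and AngII+3W replicate 2 (6 lower). These alternatives were chosen after seeing the data. Of 8 mesothelial markers 1 rose in AngII against CTRL (2.90% of all genes did), and of 8 hepatocyte markers 1 fell from AngII to AngII+3W (1.32%). The mesothelial markers summed to 103 to 126 CPM in CTRL, 169 to 217 in AngII, 224 to 289 at AngII+2W and 55.1 to 187 at AngII+3W. Their part in any of the 7 genes was not tested. No adipocyte, endothelial, erythroid, lymphocyte, skeletal or cardiac muscle marker passed any of the 6 comparisons.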
